A study of Mus musculus with 2 samples.

Results

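Leukocyte integrins are described here through 10 genes, Itgam, Itgal, Itgax, Itgb2, Itga4, Itgb1, Itgb7, Itgav, Itgb3 and Itgb5. The genes were chosen by symbol and not by any measured value, but with earlier results of these data known. They are 10 of 55536 annotated genes of the tables and 10 of the 27 integrin genes of mouse listed for this work. To them belong 53 annotated transcripts. RNA came from the nucleoplasmic fraction of macrophages grown from bone marrow of C57BL/6J mice, as total RNA depleted of ribosomal RNA. The cells had received Lipid A, the membrane anchor of bacterial lipopolysaccharide that the receptor Tlr4 recognises, at 100 ng/ml for 12 h, and had then been kept free of it for 12 h. They were collected at 0 min of a renewed exposure. Replicates 1 and 2 are separate biosamples of this 1 group, made from 1 µg and 500 ng of starting RNA, and these amounts and the replicate numbers cannot be told apart. Both carry the same donor label, and the labels used here state neither age nor separate animals, so the spread between them may be technical. With 1 group, no condition was compared and no p-value was computed: levels, ratios between partner chains and the difference of the 2 libraries are descriptions.

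Integrins are cell-surface receptors made of an alpha and a beta chain, which leave the endoplasmic reticulum as a pair. Leukocytes keep them in a bent, inactive form until signals inside the cell let talin and kindlin bind the beta chain tail, after which the receptor extends and grips its ligand. Beta 2 integrins are restricted to leukocytes and serve firm adhesion and uptake of complement-coated particles. The alpha 4 chain binds Vcam1 and fibronectin, and alpha v integrins bind vitronectin and other proteins with an RGD motif and also take part in the clearance of dying cells.

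The sequences at which the deposited transcripts of these genes part are shown first, because several values further on turn on them. The leading Itgb2 transcript (ENSMUST00000000299.13), called full-length here, has 16 exons. Its exon 12 (chr10:77559479-77559723, mm10, plus strand, 245 bases, within the coding sequence) is absent from the transcripts ENSMUST00000153541.1, called the skipping transcript, and ENSMUST00000156644.7, which also lacks the exon before it and is called the double-skipping transcript. The exon is given whole, followed by the junction that leads into it in the full-length transcript and by the junction of the skipping transcript, with the first in-frame stop codon in capitals. All sequences of transcripts are GENCODE M21 sequences in the direction of transcription.
Itgb2 exon 12: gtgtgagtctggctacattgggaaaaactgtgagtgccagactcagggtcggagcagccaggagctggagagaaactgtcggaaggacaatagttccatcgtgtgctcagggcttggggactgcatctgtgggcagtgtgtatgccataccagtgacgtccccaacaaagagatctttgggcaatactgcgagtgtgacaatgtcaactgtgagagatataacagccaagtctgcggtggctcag
Itgb2 full-length junction: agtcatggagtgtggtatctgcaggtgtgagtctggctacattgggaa
Itgb2 skipping junction: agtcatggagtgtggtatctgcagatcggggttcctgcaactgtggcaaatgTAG
The length of the exon leaves a remainder of 2 when divided by 3. Without it, the reading frame meets TAG after 28 bases of the following exon, and the annotated coding sequence is 1440 bases in the skipping transcript, against 2310 in the full-length one.

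Itgam and Itgal each have a pair of coding junctions that differ by 3 bases, shown in capitals. In Itgam they open exon 14 (chr7:128101634-128101636, plus strand) of ENSMUST00000064821.13, and the leading transcript ENSMUST00000106242.9 lacks them. In Itgal they close exon 18 (chr7:127317364-127317366, plus strand) of the leading transcript ENSMUST00000106306.8, and 3 other coding transcripts lack them.
Itgam with the 3 bases: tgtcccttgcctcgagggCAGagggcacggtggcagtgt
Itgam without them: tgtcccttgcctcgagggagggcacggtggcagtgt
Itgal with the 3 bases: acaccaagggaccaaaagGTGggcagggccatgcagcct
Itgal without them: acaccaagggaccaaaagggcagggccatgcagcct

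All 10 genes had counts in both libraries, and 8 of them reached at least 1 TPM in both, a unit that scales the length-corrected abundances of a library to a fixed total. Over all 22028 protein-coding genes this share was 44.4%. At least 10 TPM in both was reached by 7 of the 10, against 19.7% of protein-coding genes. The median over the 10 genes was 35.4 TPM in replicate 1 and 27.1 in replicate 2 (mean 31.2 ± 5.93 TPM, SD, n = 2). Over the 9791 protein-coding genes at 1 TPM or more in both libraries, the median was 9.34 TPM in replicate 1 and 9.07 in replicate 2. The 10 genes together held 85.6% of the summed TPM of all listed integrin genes in replicate 1 and 84.5% in replicate 2.

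Replicate 1 held 22907877 expected counts over annotated genes, and replicate 2 held 18612405. A further deposited quantification, called the second quantification, was made straight from the reads. It gave lower TPM for most genes, and the gene-level TPM was 2.26 times the second for the median of the 10 genes in replicate 1 and 1.56 times in replicate 2, against 1.79 and 1.33 times over protein-coding genes at 1 TPM or more. The macrophage identity of the cells was checked with 8 marker genes, all at 10 TPM or more in both libraries, with sums of 3502 TPM in replicate 1 and 2865 in replicate 2. Other cell types were represented by 33 markers of 7 types, and 31 of the 33 were under 1 TPM in both libraries of the gene-level tables. The exceptions were Pf4, a platelet chemokine, at 12.5 and 16.7 TPM in replicates 1 and 2, and Kit, a receptor of mast cells and progenitors, at 0.48 and 1.13 TPM. Of the 33, only Ly6g (neutrophils), Cd3e (T cells), Gp1bb (megakaryocytes) and Fcer1a and Mcpt4 (mast cells) had 0 counts in both libraries. A count of 0 allows up to 3 counts. Others of the same lists had counts, such as Ngp (neutrophils) with 8 in replicate 1 and 14 in replicate 2, and Cd3d (T cells) with 0 and 4.

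**Figure D1:**
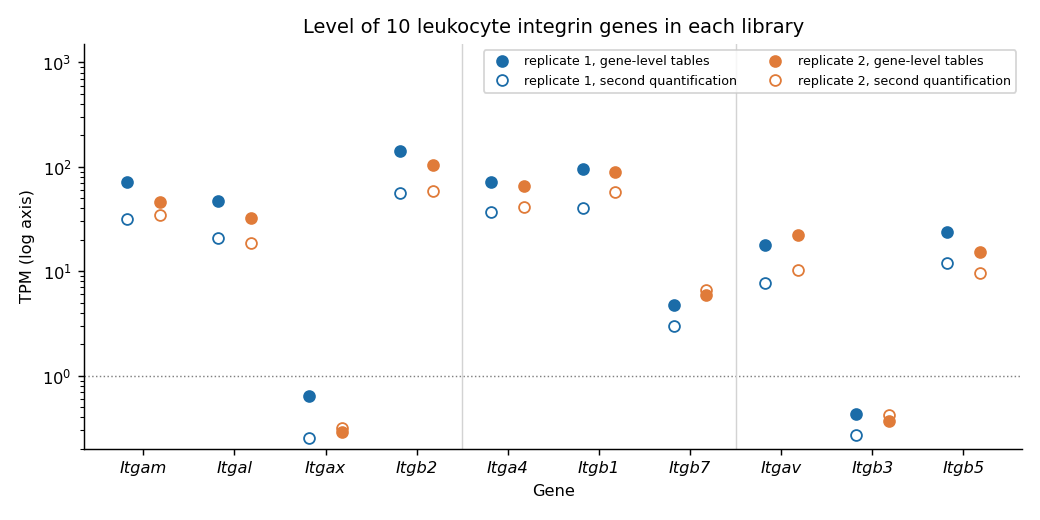
Level of each of the 10 integrin genes in TPM on a log axis, with replicate 1 in blue left of replicate 2 in orange; filled circles are the gene-level tables and open circles the second quantification, the dotted line marks 1 TPM, and grey lines separate the beta 2, alpha 4 and alpha v groups. Itgax and Itgb3 lie below 1 TPM in both libraries, and Itgb2 is the highest gene in each library under both quantifications.

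Itgb2, the beta chain shared by all beta 2 integrins and the gene whose loss causes leukocyte adhesion deficiency, was the highest of the 10. Itgb2 (ENSMUSG00000000290.13, chr10:77530252-77565708, plus strand) had 142 TPM in replicate 1 and 104 in replicate 2, from 11050 and 6638 expected counts. It exceeded 99.0% of protein-coding genes in replicate 1 and 98.7% in replicate 2. In the second quantification it stood at 56.0 TPM in replicate 1 and 58.4 in replicate 2, again first of the 10, although the higher library was the other one.

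Itgam encodes alpha M, which with Itgb2 forms the complement receptor that binds the fragment iC3b. Itgam (ENSMUSG00000030786.18, chr7:128062640-128118491, plus strand) had 72.1 TPM in replicate 1 and 45.6 in replicate 2. Itgal encodes alpha L, which with Itgb2 forms the receptor for Icam1 through which leukocytes hold on to other cells. Itgal (ENSMUSG00000030830.18, chr7:127296260-127335138, plus strand) had 46.9 TPM in replicate 1 and 32.1 in replicate 2. Itgam stood at 1.54 times Itgal in replicate 1 and 1.42 times in replicate 2, and at 1.54 and 1.87 times in the second quantification. The order of the pair was thus the same in each library and each quantification, while the levels of Itgam in replicate 2 and Itgal in replicate 1 were close. Neutrophils carry the same chains, and 6 neutrophil markers summed to 1.15 TPM in replicate 1 and 1.01 in replicate 2.

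Itgax, the alpha X chain that serves as a marker of dendritic cells and of some tissue macrophages, was close to the lower end. Itgax (ENSMUSG00000030789.9, chr7:128129547-128150657, plus strand) had 37 expected counts in replicate 1 and 27 in replicate 2, which gave 0.64 and 0.29 TPM. A large part of the difference in TPM between the libraries came from 1 count: a retained-intron transcript of 352 bases (ENSMUST00000205408.1) received 1 count and 0.28 TPM in replicate 1 and 0 counts in replicate 2. The leading protein-coding Itgax transcript had 0.31 TPM in replicate 1 and 0.29 in replicate 2. Itgam stood at 113 times Itgax in replicate 1 and 157 times in replicate 2, and at 125 and 111 times in the second quantification. The 5 dendritic cell markers summed to 1.84 TPM in replicate 1 and 1.93 in replicate 2, and none of them reached 1 TPM in both libraries.

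Itgam and Itgax lie next to each other on the same strand, with 11055 bases between the end of Itgam and the start of Itgax, and stood more than 100-fold apart in level. Their promoters are given for this reason, as the 250 bases before the RefSeq start on GRCm38.p6 (chr7:128062390-128062639 for Itgam and chr7:128129300-128129549 for Itgax, both on the plus strand). Capitals mark GAGGAA or, on the other strand, TTCCTC, a core recognised by the myeloid transcription factor Spi1.
Itgam promoter: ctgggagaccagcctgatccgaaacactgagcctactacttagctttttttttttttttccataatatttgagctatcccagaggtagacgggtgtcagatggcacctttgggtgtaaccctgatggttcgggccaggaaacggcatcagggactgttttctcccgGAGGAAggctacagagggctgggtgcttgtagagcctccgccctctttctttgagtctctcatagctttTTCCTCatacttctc
Itgax promoter: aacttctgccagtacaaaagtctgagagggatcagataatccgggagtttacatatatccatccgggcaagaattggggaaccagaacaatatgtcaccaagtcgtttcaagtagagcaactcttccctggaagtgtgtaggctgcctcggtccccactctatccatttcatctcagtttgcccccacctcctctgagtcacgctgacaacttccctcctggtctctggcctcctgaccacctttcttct
The motif was searched on both strands, and its forms cannot overlap each other. The Itgam window held GAGGAA with its first base 84 bases before the start and TTCCTC with its first base 15 bases before it, and the Itgax window held neither. Promoters of 7 of the 10 genes were matched, and 3 of the 7 (Itgam, Itgb1 and Itgav) held the motif, against 23.3% of 32851 promoters of the same length. A match describes letters only, and binding was not measured.

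The alpha chains that pair with Itgb2 (Itgal, Itgam, Itgax and the low Itgad) summed to slightly less than Itgb2 itself. Their summed TPM was 0.842 times that of Itgb2 in replicate 1 and 0.752 times in replicate 2 (mean 0.797 ± 0.0635, SD, n = 2). In the second quantification the ratio was 0.964 in replicate 1 and 0.938 in replicate 2. Itgam and Itgal made up nearly all of the alpha side, since Itgad, the alpha D chain, had 0.17 and 0.09 TPM from 3 counts and 1 count in replicates 1 and 2.

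Itga4, the alpha 4 chain of the Vcam1 receptor, was the highest of the alpha chains by mean level. Itga4 (ENSMUSG00000027009.18, chr2:79255426-79333123, plus strand) had 72.3 TPM in replicate 1 and 65.7 in replicate 2. Itgb1, the beta chain with the widest choice of alpha partners, followed Itgb2 in the order of levels. Itgb1 (ENSMUSG00000025809.15, chr8:128685654-128733200, plus strand) had 96.2 TPM in replicate 1 and 89.4 in replicate 2. Itgb7, the other beta partner of alpha 4 and part of the gut-homing integrin of lymphocytes, was far lower. Itgb7 (ENSMUSG00000001281.10, chr15:102215995-102231944, minus strand) had 4.72 TPM in replicate 1 and 5.98 in replicate 2, from 233 and 185 expected counts. T cell markers, 5 in number, summed to 0.09 TPM in replicate 1 and 0.15 in replicate 2, and 4 B cell markers to 0.84 and 0.98 TPM. The T cell markers of the second quantification summed to 2.38 TPM in replicate 1 and 5.46 in replicate 2, mostly from Cd3d at 1.76 and 4.20 TPM, beside 3.02 and 6.68 TPM for Itgb7, and their part in the Itgb7 level was not tested.

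Itga4 stood at 0.752 times Itgb1 in replicate 1 and 0.735 times in replicate 2 (mean 0.743 ± 0.0117, SD, n = 2), the steadiest of the partner ratios between the libraries in the gene-level tables. In the second quantification it was 0.917 in replicate 1 and 0.725 in replicate 2. Itga4 stood at 15.3 times Itgb7 in replicate 1 and 11.0 times in replicate 2. The second quantification gave 12.3 and 6.24 times. Itgb1 stood at 20.4 times Itgb7 in replicate 1 and 14.9 times in replicate 2, and at 13.4 and 8.62 times in the second quantification. Itgb1 also pairs with alpha chains outside the 10 genes, so that the Itga4 ratio does not count all its partners.

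Itgav, the alpha v chain, and Itgb5, one of its beta partners, were at middle levels. Itgav (ENSMUSG00000027087.11, chr2:83724397-83806916, plus strand) had 17.7 TPM in replicate 1 and 22.03 in replicate 2. Itgb5 (ENSMUSG00000022817.15, chr16:33829665-33949338, plus strand) had 23.95 TPM in replicate 1 and 15.2 in replicate 2. The libraries thus put the pair in opposite order, and the second quantification did the same. Itgb3, the beta 3 chain of osteoclasts and platelets, was the lowest of the 10 by mean level. Itgb3 (ENSMUSG00000020689.4, chr11:104608000-104670476, plus strand) had 0.43 TPM in replicate 1 and 0.37 in replicate 2, from 69 and 51 counts. The 5 megakaryocyte markers, which would mark the platelet lineage, summed to 13.3 TPM in replicate 1 and 17.5 in replicate 2, nearly all from Pf4. The platelet alpha chain Itga2b had 0.56 TPM in replicate 1 and 0.57 in replicate 2, and the part of such cells in the Itgb3 level was not tested.

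Itgb5 stood at 55.7 times Itgb3 in replicate 1 and 41.2 times in replicate 2, and at 45.0 and 23.3 times in the second quantification. The sum of both beta chains was 1.38 times Itgav in replicate 1 and 0.709 times Itgav in replicate 2 (mean 1.04 ± 0.474, SD, n = 2). Whether the sum of Itgb3 and Itgb5 was above or below Itgav therefore depended on the library. Other beta chains, such as Itgb1 at 96.2 TPM in replicate 1 and 89.4 in replicate 2, were not counted in this sum.

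By mean level the order was Itgb2, Itgb1, Itga4, Itgam, Itgal, Itgav, Itgb5, Itgb7, Itgax and Itgb3. The first 5 places and the place of Itgb7 were the same in each library under both quantifications. Itgav and Itgb5 changed places, as did Itgax and Itgb3. Neighbours whose ranges over the libraries overlapped were Itga4 and Itgam, Itgam and Itgal, Itgav and Itgb5, and Itgax and Itgb3. Itgb2 and Itgb1 had ranges that did not overlap, but their spans of mean ± SD did (123 ± 27.3 TPM and 92.8 ± 4.82 TPM, n = 2 each).

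**Figure D2:**
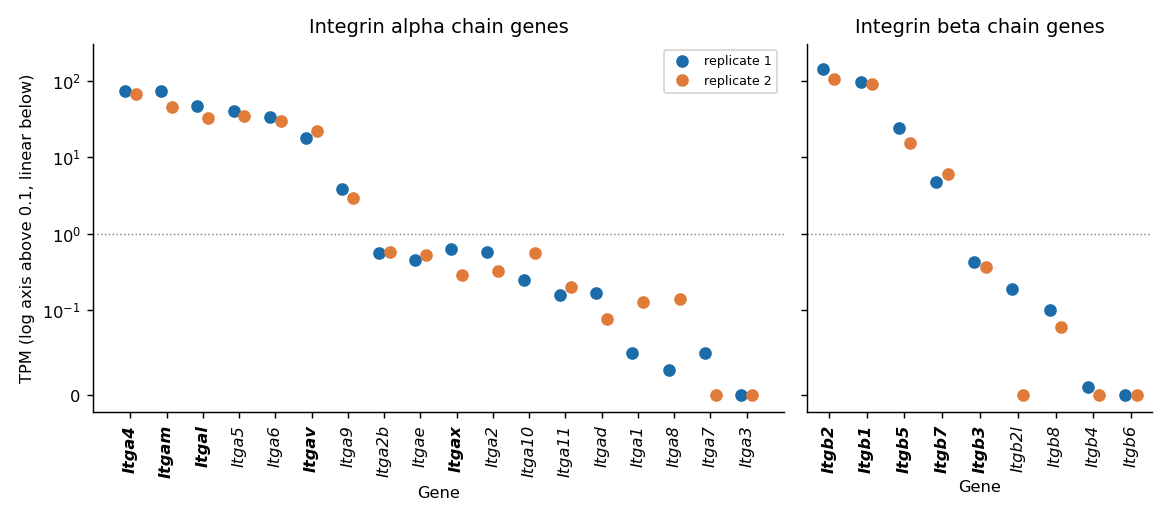
Level of all 27 listed integrin genes in TPM, alpha chains on the left and beta chains on the right, in order of mean level, with replicate 1 in blue and replicate 2 in orange; the 10 leukocyte integrin genes are in bold, and the axis is logarithmic above 0.1 TPM and linear below. Itga5, Itga6 and Itga9 are the genes outside the 10 that lie above 1 TPM in both libraries, and no beta chain outside the 10 does.

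Among the 17 integrin genes outside the 10, 3 of 13 alpha chains and 0 of 4 beta chains were at 1 TPM or more in both libraries. The share over all protein-coding genes was 44.4%. Itga5, the fibronectin receptor chain that pairs with Itgb1, had 40.2 TPM in replicate 1 and 34.8 in replicate 2. Itga6, a laminin receptor chain, had 33.6 TPM in replicate 1 and 29.3 in replicate 2. Both lay between Itgal and Itgav in mean level. The highest beta chains outside the 10, Itgb2l and Itgb8, had 0.19 and 0.10 TPM in replicate 1 and 0 and 0.08 TPM in replicate 2.

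By scaled counts, Itgb5, Itgam, Itgal and Itgb2 were higher in replicate 1, while the alpha 4 group and Itgav were nearly level. Counts were scaled with TMM factors and given as log2 ratios of replicate 1 over replicate 2, with exact 95% intervals of the counts that cover counting error only. Itgb5 had a log2 ratio of 0.68 (0.57 to 0.79), Itgam 0.67 (0.62 to 0.72), Itgal 0.61 (0.55 to 0.67) and Itgb2 0.48 (0.44 to 0.52). Among the 10198 genes that averaged 100 counts or more, 6.60% were further apart than Itgb5, 6.79% further than Itgam, 8.80% further than Itgal and 15.5% further than Itgb2. The median log2 ratio was 0.28 over the 8 integrin genes with that count, and 0.01 over protein-coding genes with it. In bulk RNA, fewer cells of a type and less RNA per cell cannot be told apart.

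Itga4 had a log2 ratio of 0.02 (-0.02 to 0.05), Itgb1 0.07 (0.03 to 0.11), Itgb7 0.08 (-0.21 to 0.36) and Itgav -0.13 (-0.21 to -0.04). These genes lay near the centre of the distribution: 95.5% of genes at 100 counts or more were further apart than Itga4. Itgax, at 0.20 (-0.56 to 0.97), and Itgb3, at 0.18 (-0.36 to 0.73), had intervals on both sides of 0. None of the 8 genes that averaged 100 counts or more differed by 2-fold or more, against 2.00% of genes with that count. At 1.5-fold, 3 of them did (Itgb5, Itgam and Itgal), but the share of all genes past that fold was not computed. Of genes with that count, 8.80% were further apart than Itgal, the least apart of the 3. Counts of the second quantification gave log2 ratios of 0.68 for Itgb5, 0.60 for Itgam, 0.69 for Itgal and 0.45 for Itgb2. Its TPM, however, were lower in replicate 1 for Itgam (31.9 TPM, against 34.7 in replicate 2) and for Itgb2 (56.0 TPM, against 58.4), so for this pair the direction between the libraries depended on the unit. The summed macrophage markers were higher in replicate 1 by gene-level TPM. In the second quantification their sum was lower in replicate 1 (1384 TPM, against 1584 in replicate 2). The part of these markers in the ratios was not tested.

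**Figure D3:**
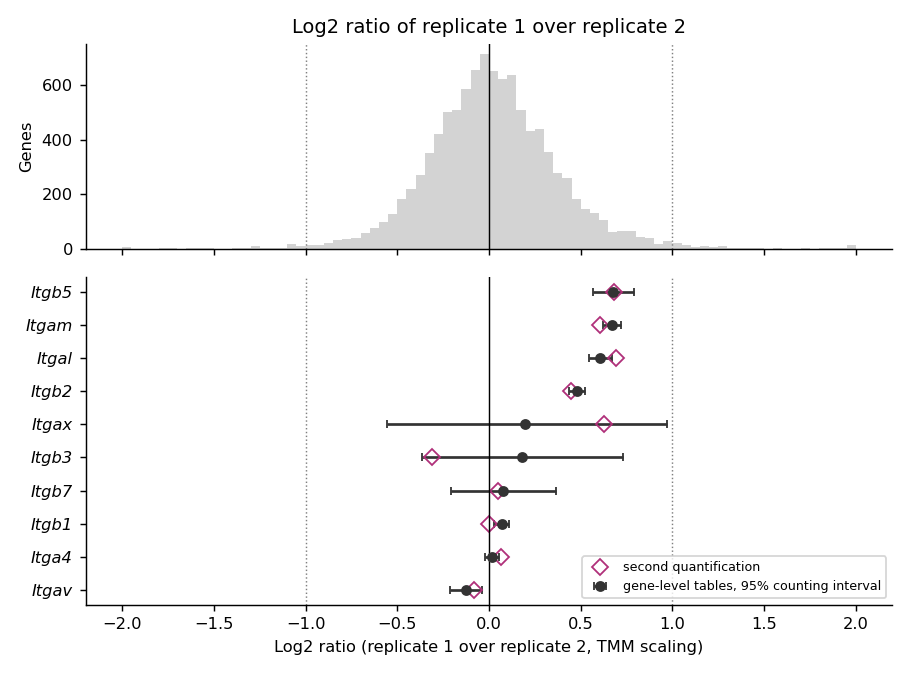
Log2 ratio of replicate 1 over replicate 2 after TMM scaling, as a histogram of genes averaging 100 counts or more (top, end bins collect genes beyond 2) and for the 10 integrin genes (bottom), with bars for the 95% counting interval and open diamonds for the second quantification; dotted lines mark a 2-fold difference. Itgb5, Itgam, Itgal and Itgb2 lie to the right of 0 with intervals that exclude it, and none reaches the 2-fold line.

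TPM and scaled counts did not point the same way for Itgb7. Its TPM was lower in replicate 1 (4.72 TPM, against 5.98 TPM in replicate 2), while its log2 count ratio was 0.08. Short transcripts carry this difference: 3 protein-coding transcripts of 358 to 455 bases received 0 TPM in replicate 1 and 0.53, 0.35 and 0.27 TPM in replicate 2. The leading Itgb7 transcript had 3.14 TPM in replicate 1 and 2.77 in replicate 2.

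Protein-coding transcripts made up most of the TPM of the integrin genes. Their median share over the 10 genes was 97.4% in replicate 1 and 96.0% in replicate 2 (mean 96.7% ± 0.937, SD, n = 2). Over 9791 protein-coding genes at 1 TPM or more the same median was 74.1% and 73.3%. In the second quantification the share was 71.6% in replicate 1 and 77.8% in replicate 2 for the 10 genes, and 60.3% and 59.5% over protein-coding genes, so the shares are lower there for both. Itgb1, Itgam, Itgal and Itgb5 were above 95% in both libraries of the gene-level tables, and Itgb3 was at 100%.

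**Figure D4:**
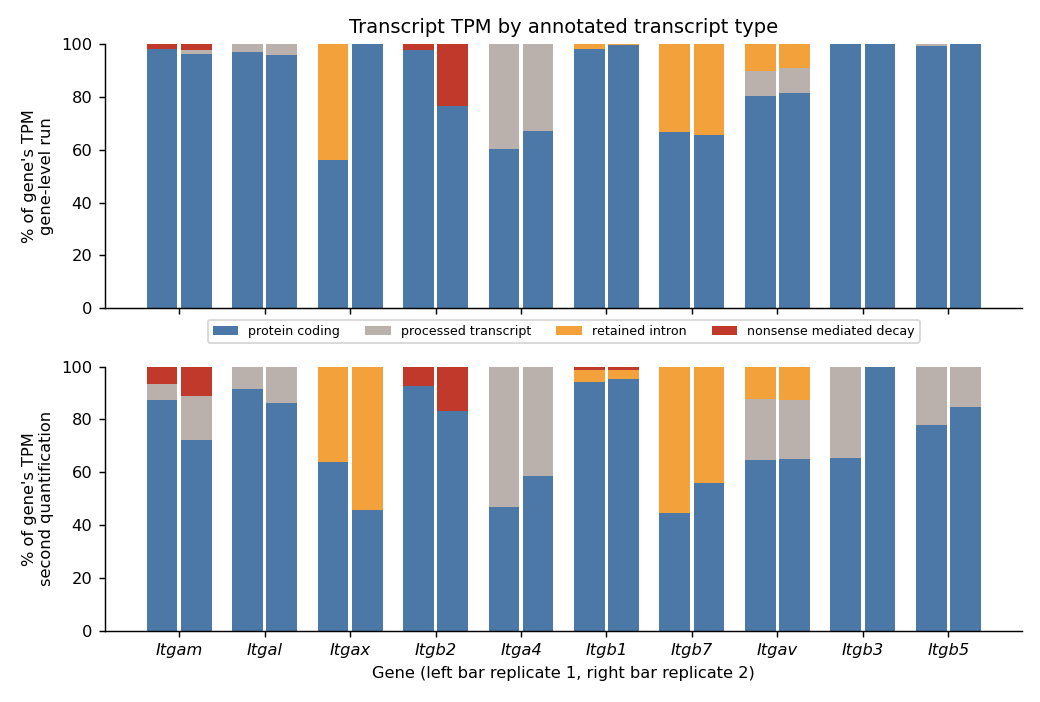
Share of each gene's transcript TPM by annotated transcript type, in percent, in the gene-level run (top) and the second quantification (bottom), with replicate 1 as the left bar and replicate 2 as the right bar of each gene. Itga4 has a large share of processed transcripts and Itgb7 of retained introns in all 4 bars, whereas the retained-intron bar of Itgax is missing in replicate 2 of the top row and the decay share of Itgb2 is larger in replicate 2.

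Itga4 and Itgb7 stood apart in their transcripts. Of the 5 Itga4 transcripts 1 is protein-coding, with 43.5 TPM in replicate 1 and 44.01 in replicate 2. The other 4 are annotated as processed transcripts with no coding sequence. They held 39.8% of Itga4 TPM in replicate 1 and 33.0% in replicate 2, and 53.2% and 41.5% in the second quantification. All 4 are shorter than the coding transcript, and they held 12.0% of Itga4 expected counts in replicate 1 and 9.15% in replicate 2. The highest of them in the gene-level run (ENSMUST00000155105.1, chr2:79255426-79257852, 2314 bases), lies at the start of the gene and had 11.2 TPM in replicate 1 and 10.3 in replicate 2. It had 4.65 and 5.58 TPM in the second quantification and was below 2 of the others in replicate 1. With protein-coding transcripts alone, the ratio of Itga4 to Itgb1 was 0.478, against 0.743 with all transcripts. In Itgb7, a retained-intron transcript (ENSMUST00000230550.1, 449 bases at the end of the gene) held 33.5% of TPM in replicate 1 and 34.4% in replicate 2, from 9.92 and 11.8 counts.

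Retained-intron transcripts are annotated for 4 of the 10 genes (Itgax, Itgb1, Itgb7 and Itgav). Itgav had 10.3% of its TPM in them in replicate 1 and 9.12% in replicate 2, and Itgb1 had 1.81% and 0.38%. The median over the 4 genes was 21.9% in replicate 1 and 4.75% in replicate 2. It was 29.2% and 30.7% over 6143 protein-coding genes with such transcripts and at 1 TPM or more in both libraries. Itgax, 1 of the 4, was below 1 TPM in both libraries, so the 2 sets were not chosen alike. The difference between the libraries rests on Itgax, whose share was 43.8% in replicate 1 and 0% in replicate 2 through the single count named above. In the second quantification the medians were 24.3% and 28.2%. The shares concern annotated transcripts, and RNA from introns outside them was not measured here.

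The division of Itgb2 among its transcripts differed between the libraries. The full-length transcript had 136 TPM in replicate 1 and 77.0 in replicate 2. The skipping transcript, annotated as a target of nonsense-mediated decay, had 1.58 TPM from 109 counts in replicate 1 and 22.6 TPM from 1330 counts in replicate 2. The intervals that the authors deposited for the skipping transcript ran from 0.65 to 3.11 TPM in replicate 1 and from 16.0 to 26.3 in replicate 2. They did not overlap, but such an interval did not always hold its own estimate. For the full-length transcript it ran from 128.7 to 134.2 TPM in replicate 1, below the 136 TPM given. In replicate 2 it ran from 69.0 to 78.3 TPM and held the estimate. The double-skipping transcript, annotated as a decay target like the skipping one, had 1.86 TPM in replicate 1 and 1.84 in replicate 2.

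Together, transcripts without exon 12 held 2.47% of the TPM of these 3 transcripts in replicate 1 and 24.1% in replicate 2. The second quantification gave 7.57% in replicate 1 and 17.6% in replicate 2, so the direction was the same and the distance smaller. It also divided the signal otherwise, with 0.82 and 2.49 TPM for the skipping and 3.31 and 7.27 TPM for the double-skipping transcript in replicates 1 and 2. The 3 transcripts differ at their ends too, and exon 3 has 149 bases in the double-skipping transcript, against 89 in the full-length and skipping ones. Reads elsewhere than at exon 12 thus enter the division, and reads across the junctions printed above are not part of the tables. Taking only protein-coding transcripts, the beta 2 alpha chains stood at 0.893 times Itgb2 (mean of the libraries).

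**Figure D5:**
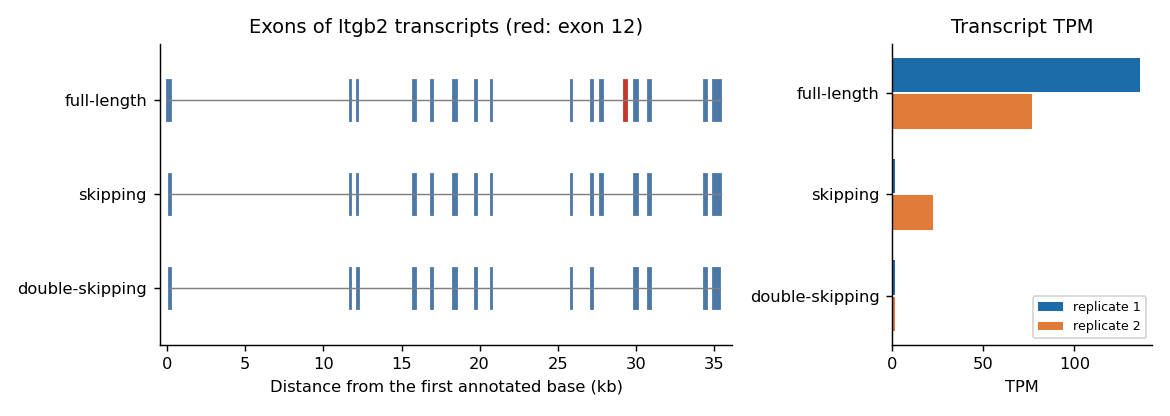
Exons of 3 Itgb2 transcripts as boxes against the distance in kilobases from the first annotated base of the gene (left; exon 12 in red), and the TPM of each transcript as bars from 0 (right), with replicate 1 in blue above replicate 2 in orange. Exon 12 is drawn in the full-length transcript alone, and the skipping transcript has 1.58 TPM in replicate 1 and 22.6 in replicate 2.

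The 3-base junction variants of Itgam and Itgal kept their proportions between the libraries. The Itgam transcript with the 3 bases held 34.6% of the TPM of the pair in replicate 1 and 32.8% in replicate 2, and 30.9% and 30.5% in the second quantification. The Itgal transcript with the 3 bases held 51.6% of the TPM of the 4 transcripts compared in replicate 1 and 53.2% in replicate 2, and 59.2% and 60.9% in the second quantification. These transcripts differ elsewhere as well, in their ends and, for Itgal, in further exons. Among those without the bases, ENSMUST00000117762.7 had 6.32 TPM in replicate 1 and 0 in replicate 2, while ENSMUST00000118405.1 had 11.1 and 11.9 TPM. The split among single Itgal transcripts was thus less stable than the split by the 3 bases. A further coding Itgal transcript (ENSMUST00000170971.7) was left out of the comparison. It had 0 TPM in both libraries of the gene-level run, and 1.88 TPM in replicate 1 and 0.10 in replicate 2 of the second quantification.

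The leading transcript of the other genes carried most of their counts. That of Itgam had 45.8 TPM in replicate 1 and 28.95 in replicate 2, that of Itgb1 had 94.3 and 88.9 TPM, and that of Itgb3 had 0.43 and 0.37 TPM. That of Itgav had 10.6 TPM in replicate 1 and 10.2 in replicate 2, nearly equal, although the gene as a whole was higher in replicate 2. The difference lay partly in a transcript of 463 bases (ENSMUST00000131192.1), with 1.78 TPM in replicate 1 and 4.93 in replicate 2, and with 0 TPM in both libraries of the second quantification. That of Itgb5 had 17.5 TPM in replicate 1 and 9.82 in replicate 2, and another Itgb5 transcript (ENSMUST00000232262.1), which starts further downstream, had 6.33 and 5.43 TPM.

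Several of these genes share sequence with others, which bears on how reads were assigned. Of the 31-base stretches of the leading Itgam transcript, 74.0% also occur in Gm49368, an annotated read-through gene on the same strand (chr7:128062683-128128160) that received 13.5 counts in replicate 1 and 9.60 counts in replicate 2. Of those of the leading Itgax transcript, 12.7% occur in Itgad, with a longest common stretch of 188 bases, and of those of the Itga4 coding transcript, 11.0% occur in Cerkl, which lies on the opposite strand and overlaps the end of Itga4. Cerkl had 106 counts in replicate 1 and 35.7 in replicate 2, or less than 1% of the Itga4 counts. On the opposite strand of Itgav lie Gm13684, with 53.2 counts in replicate 1 and 69.5 in replicate 2, and Dnmt3l-ps1, with 24 and 23 counts. The use of strand in counting is not given in the sources used here, so reads of these overlapping genes cannot be told apart. The leading transcripts of Itgal, Itgb1 and Itgb7 shared none of their 31-base stretches with another gene.

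Genes that activate integrins or link them to actin were mostly present. Of 32 listed genes, 26 were at 1 TPM or more in both libraries and 20 at 10 TPM or more. Over all protein-coding genes the shares at these minimums were 44.4% and 19.7%. The median of the list was 18.8 TPM in replicate 1 and 19.1 in replicate 2. Fyb, an adaptor that couples receptor signals to integrin activation in leukocytes, had 442 TPM in replicate 1 and 413 in replicate 2. Tln1, talin, which binds beta chain tails, had 124 TPM in replicate 1 and 202.3 in replicate 2, while its counts were 13578 and 9429, so its direction between the libraries depended on the unit. Syk, a kinase that acts downstream of beta 2 integrins, had 156 TPM in replicate 1 and 127 in replicate 2. Fermt1, Fermt2 and Parva had 0 counts in both libraries, whereas Fermt3, the kindlin of blood cells, had 87.6 TPM in replicate 1 and 76.0 in replicate 2.

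Of 24 listed genes of integrin ligands, 8 were at 1 TPM or more in both libraries, and 5 of these at 10 TPM or more. The other 16 were under 1 TPM in both. Over all protein-coding genes the shares at these minimums were 44.4% and 19.7%, so at 10 TPM the list lay close to them. Spp1, osteopontin, a ligand of alpha v and alpha 4 integrins, had 205 TPM in replicate 1 and 230 in replicate 2. C3, whose fragment iC3b the Itgam product binds, had 113 TPM in replicate 1 and 77.7 in replicate 2. Icam1, the ligand of the Itgal product, had 100.6 TPM in replicate 1 and 83.3 in replicate 2. Madcam1, the ligand of the pair of Itga4 and Itgb7, and Vtn, vitronectin, had 0 counts in both libraries, together with Icam4, Fga, Fgb, Fgg and Thy1. The second quantification nevertheless gave Thy1 2.61 TPM in replicate 1 and 3.79 in replicate 2, which leaves its level uncertain.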

How the data were processed

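Notes that the authors deposited with the files state how the values were made. The authors' gene-level and transcript-level tables hold a deposited expected count and TPM derived from alignments to the transcriptome, and a further deposited table per library holds an estimated count and a TPM made without that alignment. The same notes name mm10 and GENCODE M21. Programs, strand use and the level of the deposited TPM intervals are not given in the sources consulted. Libraries were grouped by their labels as 2 replicates of 1 group.

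Symbols, transcript types, positions and transcript sequences came from GENCODE M21, and promoters from RefSeq (GRCm38.p6). Entries that name no annotated gene held 1.01% of expected counts in replicate 1 and 0.336% in replicate 2 and were left out. Expected counts were rounded, and log2 ratios used TMM factors (0.985 and 1.02 for replicates 1 and 2) from edgeR 4.0.16 in R 4.3.3 on 14892 genes that passed filterByExpr, and the prior count was 0.5. A gene was called apart when it averaged 100 counts or more and its log2 ratio was 1 or more in size. Intervals on ratios are Clopper-Pearson 95% intervals of the counts. No molecular identifiers were used as far as the files show, so these intervals and the floor of 3 counts cover counting error only. Alternatives were DESeq2 1.42.0 size factors, library totals, other minimums, the second quantification, protein-coding transcripts only, a rescaling of TPM to protein-coding genes and each replicate left out. Shared sequence was counted as 31-base stretches of each leading transcript found in transcripts of other genes. The tools were Python 3.11.15, pandas 2.3.3, numpy 2.4.6, scipy 1.17.1 and matplotlib 3.10.9.

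All 10 genes were named. Outside them the rule took the 2 alpha and 2 beta genes with the highest mean TPM, the 3 highest genes and the lowest of the activation and ligand lists, and each gene's leading transcript. Other genes and transcripts were named after their values were seen, because a count or a share turned on them. The genes and lists were chosen with earlier results of these data known.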

Additional observations from a re-analysis of the deposited data

How the results depend on the processing

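The count of integrin genes at 1 TPM or more in both libraries was 8 under the second quantification, with protein-coding transcripts only and with either replicate left out, and 9 after TPM were rescaled to protein-coding genes. At 10 TPM or more it was 5 in the second quantification, where Itgav and Itgb5 fell below that level in 1 library each, and 7 or 8 otherwise. The shares over all protein-coding genes were not computed under these alternatives, so the counts have no background there. The median level was 15.4 TPM in the second quantification and 110.2 TPM after rescaling, and the mean over the genes of log2(TPM + 0.1) was 3.98. The second quantification gave ratios of 0.951 for beta 2 alpha chains over Itgb2, 0.821 for Itga4 over Itgb1 and 9.26 for Itga4 over Itgb7; protein-coding transcripts only gave 0.893 and 0.478 for the first pair of these. The cause of these shifts was not tested. Leaving out replicate 1 or 2 put the alpha v ratio at 0.709 or 1.38 and the retained-intron share at 4.75% or 21.9%, so 1 library decides each. The retained-intron share was 26.3% in the second quantification. The protein-coding share was 74.7% there and 99.3% by expected counts. No gene was called apart under other scalings or minimums, and 3 were at 1.5-fold, where the share over all genes was not computed. The log2 ratio of Itgb3 was 0.18 and, in the second quantification, -0.31; that of Itga4 was 0.02 and, by library totals, -0.03. For 2 alternatives chosen after seeing the data, adding the read-through gene Gm49368 to Itgam moved its level by less than the spread of the libraries, while the share of Itgb2 TPM without exon 12 was 24.1% without replicate 1 and 2.47% without replicate 2, so 1 library decides it. No paired analysis was possible because the samples form 1 group. Depth limits Itgax and Itgb3, each with under 100 counts per library.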

Other observations

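Further genes of the activation and linkage list, named here after their values were seen, differed widely in level. Among the Src family kinases that act below beta 2 integrins in phagocytes, Lyn had 124 TPM in replicate 1 and 85.7 in replicate 2. Fgr had 0.67 TPM in replicate 1 and 1.11 in replicate 2, and Src itself had 1.82 and 2.34 TPM. The log2 count ratio of replicate 1 over replicate 2 was 0.49 for Lyn, beside 0.67 for Itgam and 0.48 for Itgb2, and was -0.85 for Fgr, from 54 and 82 counts.

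A complex of Ilk, Lims1 and a parvin ties beta chain tails to actin. RNA of Ilk, Lims1 and the parvins Parvb and Parvg was found in both libraries, and the complex itself was not measured. Ilk had 25.1 TPM in replicate 1 and 31.1 in replicate 2, and Lims1 had 19.3 and 21.8 TPM. Parvg had 16.3 TPM in replicate 1 and 18.01 in replicate 2, Parvb had 6.86 and 7.34 TPM, and Parva had 0 counts in both libraries, though 0.52 and 1.13 TPM in the second quantification. The values are descriptions of 2 libraries, with no test.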
